A study of Mus musculus with 18 samples.

Results

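The 10 genes followed here belong to the cytoskeleton and to calcium-dependent membrane and filament binding, in cultured mouse hepatocytes: S100a6, S100a10, S100a11, Tagln2, Anxa2, Anxa5, Vim, Krt8, Krt18 and Lgals1. They were selected as genes known to rise when hepatocytes lose their differentiated state in culture. They were also selected on measured values, because S100a6 and Tagln2 were higher than in PBS controls in these libraries. The list holds 10 of the 37991 genes in the deposited counts, and all 10 are among the 18218 genes of the authors' comparison tables. The cells were plateable cryopreserved hepatocytes from male CD-1 mice, a commercial product, and total RNA was sequenced in 18 libraries, 6 groups of 3. Controls received PBS. The other groups received an siRNA against Ttr (transthyretin, a plasma carrier of thyroxine), either a scrambled or a TTR REVERSIR without siRNA, or the siRNA together with one of these REVERSIRs. A REVERSIR is a short synthetic oligonucleotide made to pair with the guide strand of an siRNA and so release its target from silencing. Doses, times, plating conditions and the age of the mice are not stated in the labels. Every library, controls included, came from thawed and plated cells. No freshly isolated liver or unplated cells are among the samples, so the levels below are those of plated cells and their change on plating cannot be read from them.

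S100 proteins are small calcium sensors that work by binding partner proteins. S100A10 is unusual in not depending on calcium and forms a complex with annexin A2 at the plasma membrane, and S100A11 binds annexin A1. Annexins bind acidic phospholipids when calcium is present. Keratins 8 and 18 pair to form the intermediate filaments of hepatocytes, whereas vimentin, the intermediate filament protein of mesenchymal cells, appears in epithelial cells as they lose their differentiated shape. Transgelin-2 bundles actin, and galectin-1 is a secreted lectin that is abundant in mesenchymal cells.

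Total counts per library ran from 1755819 to 10145265. PBS replicates 1 and 2 stood apart, because the ribosomal RNAs of the mitochondrion took 24.3% and 24.1% of their counts, against 5.45% in PBS replicate 3 and 1.69% to 9.56% over all of the other 16 libraries. Their 10 most abundant genes held 38.3% of the counts in each, against 14.5% to 20.9% elsewhere. The differences of the 10 genes from PBS, and those of the listed genes named below, are therefore given with and without these 2 libraries. Ttr itself followed the labels, with 1034 to 1220 CPM (read counts scaled by effective library totals) in PBS, 220.5 to 253.9 with siRNA, 225.4 to 226.8 with siRNA and scrambled REVERSIR, and 977.7 to 1357 in the other 3 groups. Whether replicates are separate cultures is not stated in the labels, so p-values measure only the spread between these libraries, which may be technical.

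Some hepatocyte identity genes stood at high level. Alb, the plasma albumin gene, lay between 36760 and 49580 CPM and the liver regulator gene Hnf4a between 337.3 and 385.5 CPM. Others on the same list were low. Cyp7a1 did not exceed 0.2521 CPM and Onecut1 1.19 CPM, Slc10a1 stood at 5.677 to 11.77 CPM, and Trf had no count in any library. Several defining markers of other liver cells were low. Collagen gene Col1a1 did not exceed 0.6835 CPM, the stellate cell gene Lrat 1.202 CPM and the endothelial gene Kdr 1.448 CPM in any library. The macrophage gene Csf1r did not exceed 2.734 CPM and the cholangiocyte keratin gene Krt7 0.5148 CPM, and the mesothelial gene Msln had no count in any library. Other markers on the same lists were higher, with the lysosomal protein gene Cd68 of macrophages at 268.3 to 371.3 CPM, Reln of stellate cells at 83.75 to 120.5 CPM, and Cldn4, Prom1 and Cd24a of cholangiocytes at 105.6 to 157.1, 95.68 to 137 and 30.17 to 47.23 CPM. Dcn, a fibroblast proteoglycan, stood at 17.27 to 30.64 CPM, Stab2, an endothelial scavenger receptor, at 35.2 to 51.18 CPM, and Krt19 at 4.163 to 7.813 CPM. Vim and Lgals1, at 100.6 to 152.9 and 4.07 to 14.1 CPM, are expressed by those cells as well. In bulk RNA, fewer cells of a type and less RNA per cell cannot be told apart.

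The 10 genes differed widely in level, compared here as counts corrected for annotated exon length and library total (FPKM). Over all 18 libraries the 2 keratins were highest, with a mean FPKM of 2098 ± 135 (SD, n = 18) for Krt18 and 1821 ± 121 for Krt8. Both stood at 99.8 on the percentile scale of the 11153 genes kept for testing. Anxa5 followed at 667 ± 20.5, S100a10 at 304 ± 14.7 and its annexin partner Anxa2 at 246 ± 16.7. Tagln2 stood at 108 ± 13.7, S100a6 at 79.2 ± 16.9, S100a11 at 77.8 ± 8.95 and Vim at 53.0 ± 7.06. With the length of the longest transcript in place of all exons the means of S100a10 and Anxa2 were 538.1 and 403, and the order of the 10 genes was the same. Lgals1 was lowest at 9.45 ± 3.16, with only 19 to 95 counts per library. The library ranges of neighbours in this order overlapped for Krt18 with Krt8, for Tagln2 with S100a6, for S100a6 with S100a11, and for S100a11 with Vim, and did not overlap for the other 5 pairs of neighbours. Anxa5 varied least, with a coefficient of variation of 3.07% over the 18 libraries, followed by S100a10 with 4.85%. The most variable were Lgals1 with 33.4% and S100a6 with 21.3%.

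**Figure D1:**
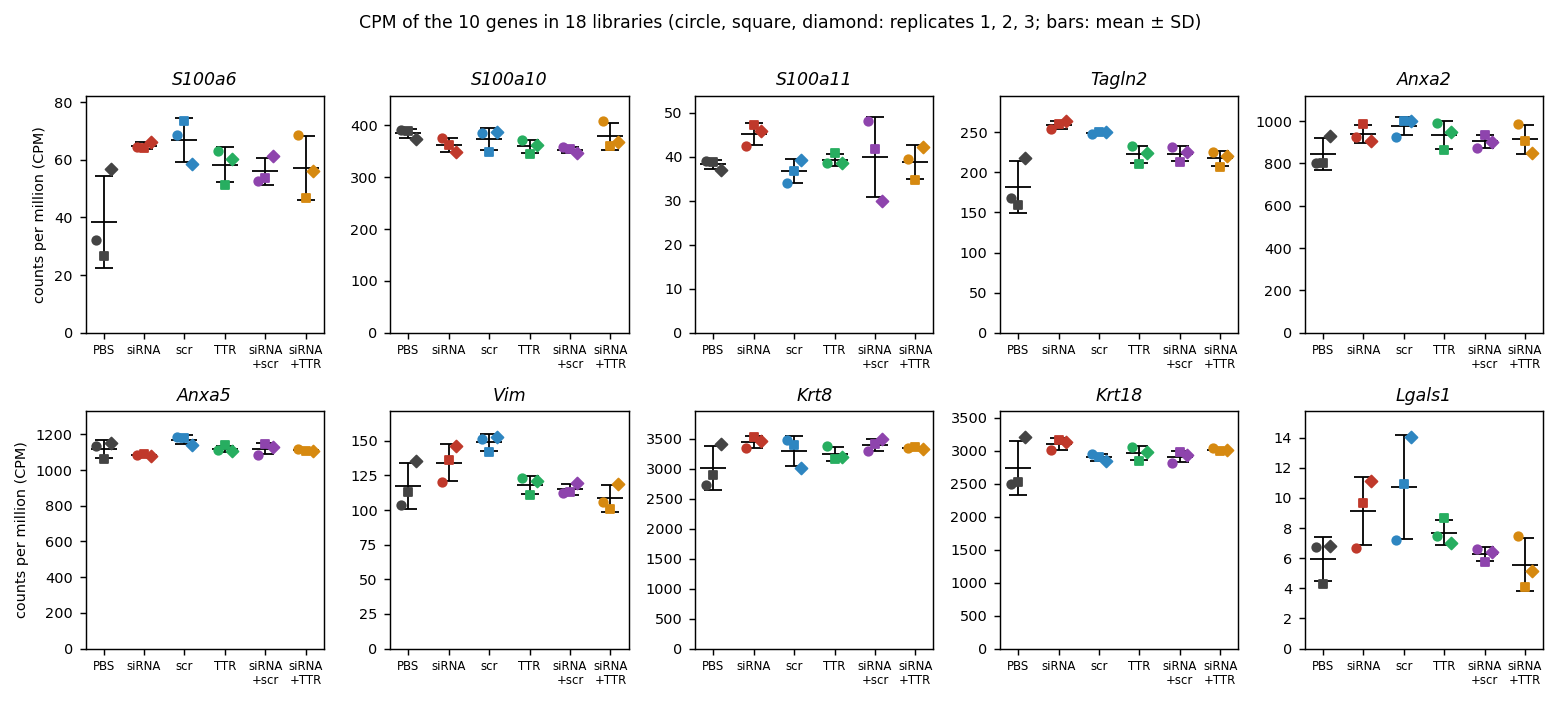
CPM of each gene in every library, with 1 panel per gene and each axis starting at 0. Circles, squares and diamonds are replicates 1, 2 and 3, and bars give the mean ± SD of 3 libraries. On the axes scr and TTR stand for the scrambled and the TTR REVERSIR. In S100a6, Tagln2, Anxa2, Krt8 and Krt18, PBS replicates 1 and 2 lie below all other 16 libraries.

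The S100 genes lie on chromosome 3 of the build used by the authors, NCBIM37. S100a6 (ENSMUSG00000001025) spans chr3:90416816-90418336 on the plus strand in 3 exons. S100a11 (ENSMUSG00000027907, chr3:93324410-93330209) and S100a10 (ENSMUSG00000041959, chr3:93359002-93368565) are neighbours on the same strand, 28.8 kb apart. Anxa5 (ENSMUSG00000027712, chr3:36347847-36374765, minus strand) is also on this chromosome. Anxa2 (ENSMUSG00000032231) is at chr9:69301427-69339602 on the plus strand. Its exons overlap the antisense transcript Gm16144 by 98 bases, and since the strand of counting is not given, reads of the pair cannot be told apart. Tagln2 (ENSMUSG00000026547) is at chr1:174430178-174437511 and Vim (ENSMUSG00000026728) at chr2:13495554-13504453, both on the plus strand. On chromosome 15, Krt8 (ENSMUSG00000049382, chr15:101827142-101834773, minus strand) and Krt18 (ENSMUSG00000023043, chr15:101858647-101862457, plus strand) are 23.9 kb apart and point away from each other. Lgals1 (ENSMUSG00000068220) is at chr15:78757155-78760895 on the plus strand.

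S100a6, which encodes the calcium sensor calcyclin, had the largest differences from PBS. Its 3 PBS libraries held 32.1, 26.6 and 56.7 CPM. With siRNA the values were 64.4, 64.0 and 66.2, and with scrambled REVERSIR 68.5, 73.5 and 58.5. They were 63.1, 51.4 and 60.4 with TTR REVERSIR, 52.8, 53.8 and 61.5 with siRNA and scrambled REVERSIR, and 68.5, 46.6 and 56.2 with siRNA and TTR REVERSIR. PBS replicates 1 and 2 were the lowest libraries of all, whereas PBS replicate 3 lay inside the range of the 15 treated libraries, 46.6 to 73.5. It was 1.93-fold above the mean of the other 2 PBS libraries.

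Tagln2, the actin-bundling transgelin, had the same arrangement. PBS gave 168, 159 and 219 CPM. The 3 libraries with siRNA gave 254, 260 and 264 and those with scrambled REVERSIR 248, 250 and 251. With TTR REVERSIR the values were 232, 211 and 225, with siRNA and scrambled REVERSIR 231, 213 and 226, and with siRNA and TTR REVERSIR 225, 207 and 221. The siRNA and scrambled REVERSIR groups did not overlap any other group, and the other 3 treated groups lay together around PBS replicate 3.

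These 2 genes moved together across libraries. The Pearson correlation of log2 CPM was 0.926 over the 18 libraries, 0.900 for deviations from the group means and 0.717 over the 15 libraries without PBS. The points share each library's depth and scaling. Both genes were also chosen for values above PBS, so part of the correlation may come from that choice. The value for deviations includes the spread of the PBS libraries, and the last value still uses the siRNA and scrambled REVERSIR groups. All 3 values are therefore descriptions. Of all 8479 candidate genes and members whose mean log2 CPM reached 3, S100a6 was the gene most like Tagln2. The gene most like S100a6 was Tnfrsf12a, the receptor of the cytokine TWEAK, with a correlation of 0.950, which was 0.711 without PBS.

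The sequences around the starts of S100a6 and Tagln2, the pair chosen for values above PBS, are shown as a description. That of S100a11, another S100 gene, is set beside them. S100a11 had correlations of 0.013 with S100a6 and 0.212 with Tagln2 over the 18 libraries, and −0.0866 and 0.299 without PBS. The windows come from RefSeq on the build GRCm38.p6, which is not the build of the counts, and run from 250 bases before to 50 bases after the annotated start. Capitals mark matches, on either strand, to AP-1 (TGANTCA), TEAD (GGAATG), Sp1 (GGGCGG) or the CArG box of serum response factor. The motifs were those of factors that serve the response of cultured cells to spreading and serum, with Sp1 as a general one. Windows are S100a6 at chr3:90612644-90612943, Tagln2 at chr1:172499996-172500295 and S100a11 at chr3:93520246-93520545, all on the plus strand.
S100a6: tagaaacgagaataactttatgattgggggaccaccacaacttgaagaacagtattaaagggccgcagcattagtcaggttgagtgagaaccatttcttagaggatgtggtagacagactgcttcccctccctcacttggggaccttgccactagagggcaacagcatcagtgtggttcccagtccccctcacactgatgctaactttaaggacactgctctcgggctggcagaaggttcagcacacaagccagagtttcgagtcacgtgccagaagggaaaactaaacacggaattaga
Tagln2: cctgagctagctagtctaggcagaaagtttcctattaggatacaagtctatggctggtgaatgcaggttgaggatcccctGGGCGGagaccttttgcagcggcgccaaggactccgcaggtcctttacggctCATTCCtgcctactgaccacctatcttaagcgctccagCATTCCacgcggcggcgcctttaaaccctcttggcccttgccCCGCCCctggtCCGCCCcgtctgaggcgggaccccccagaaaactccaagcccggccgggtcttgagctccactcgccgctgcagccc
S100a11: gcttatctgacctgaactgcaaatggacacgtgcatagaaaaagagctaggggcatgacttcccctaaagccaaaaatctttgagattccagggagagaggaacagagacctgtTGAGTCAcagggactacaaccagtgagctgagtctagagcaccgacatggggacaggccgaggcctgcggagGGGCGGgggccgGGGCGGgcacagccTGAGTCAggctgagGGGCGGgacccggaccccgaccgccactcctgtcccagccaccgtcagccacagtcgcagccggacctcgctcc
The Tagln2 window held 2 TEAD matches, starting at −118 and −80 relative to the gene start, and 3 Sp1 matches, and the S100a11 window held 2 AP-1 matches, at −136 and −38, and 3 Sp1 matches. In the S100a6 window none of the 4 motifs was found, so S100a6 and Tagln2 shared no match to these motifs in these windows. Of the 10 genes, 8 had a window. AP-1 was found in 2 of these (Anxa2 and S100a11), against 7.79% of all 32544 windows of the same length. TEAD was found in 1 of 8 (14.6% of all windows), Sp1 in 3 of 8 (35.9%; Anxa2, S100a11 and Tagln2) and the CArG box in 1 of 8 (1.64%; Anxa5). The windows of Vim, Krt8 and Krt18 held no match either. No matches to different motifs overlapped in these windows, and a match is a description of the sequence, not a measured site.

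The difference from PBS was estimated for all 10 genes as a description, since values against PBS served to choose S100a6 and Tagln2. With siRNA, S100a6 was 0.78 ± 0.17 (SE) above PBS on the log2 scale and Tagln2 0.52 ± 0.082. With scrambled REVERSIR the values were 0.83 ± 0.19 and 0.46 ± 0.085. In the authors' deposited table the log2 fold changes for the same treatments were 0.44 and 0.46 for S100a6 and 0.45 and 0.39 for Tagln2. With siRNA that table gave 0.25 for Lgals1 and 0.18 for Krt8, against 0.66 and 0.19 here. How the deposited values were estimated, beyond the name DESeq2, is not stated. They may be a different measure, so the sizes are not compared directly. The TTR REVERSIR gave 0.65 ± 0.18 for S100a6 and 0.30 ± 0.084 for Tagln2, the siRNA with scrambled REVERSIR 0.55 ± 0.17 and 0.30 ± 0.082, and the siRNA with TTR REVERSIR 0.60 ± 0.17 and 0.26 ± 0.082. All 5 treatments share the same 3 PBS libraries.

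Against PBS replicate 3 alone, with PBS replicates 1 and 2 left out, S100a6 stood at 0.20 ± 0.17 with siRNA and 0.26 ± 0.18 with scrambled REVERSIR. The other 3 treatments gave 0.07 ± 0.17, −0.02 ± 0.17 and 0.03 ± 0.17 in the order above. Tagln2 stood at 0.25 ± 0.083 with siRNA and 0.19 ± 0.084 with scrambled REVERSIR, and at 0.04 ± 0.083, 0.04 ± 0.082 and 0.00042 ± 0.082 in the others. In these fits the lone PBS library is taken to vary as much as libraries of the other groups do. Both genes were therefore nearer to PBS in every treatment once the 2 libraries rich in mitochondrial ribosomal RNA were gone. The part of that RNA in the difference was not tested. Its share was far higher in those 2 libraries than in any other. Neither this fit nor one with the share as a covariate can therefore tell it from other features of those libraries. With the covariate, S100a6 stood at 0.28 with siRNA and 0.32 with scrambled REVERSIR, and Tagln2 at 0.31 and 0.25.

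**Figure D2:**
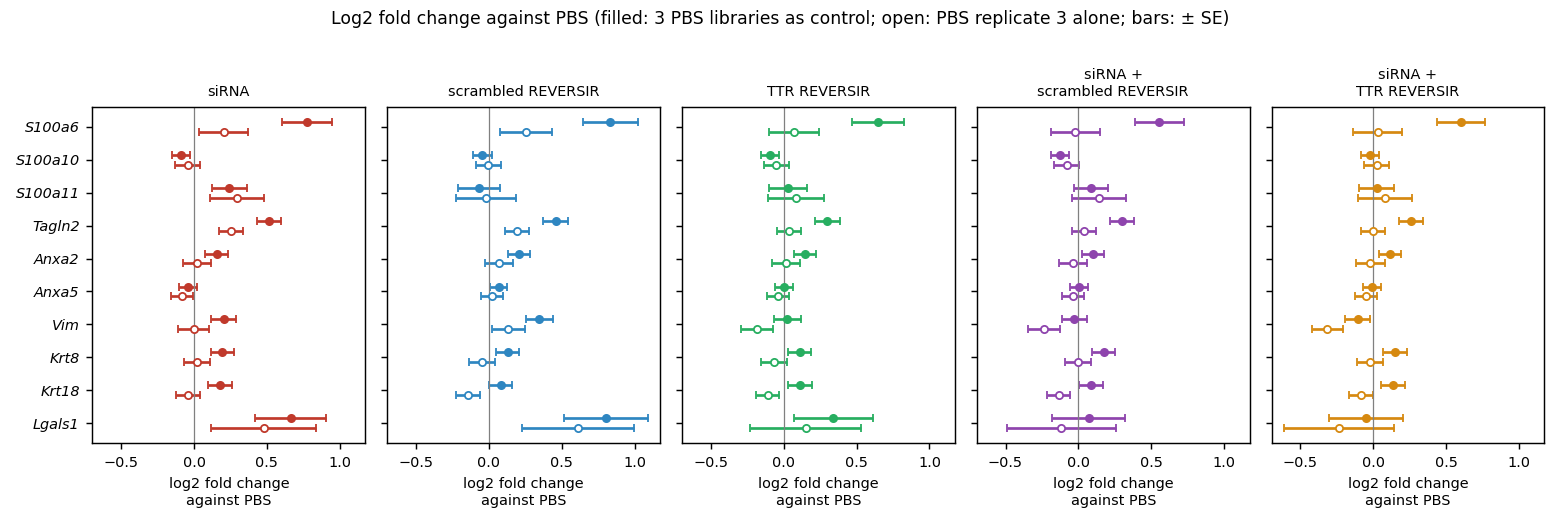
Log2 fold change of each gene against PBS for the 5 treatments, with bars of ± 1 SE. Filled points use all 3 PBS libraries and open points PBS replicate 3 alone, and the open points of S100a6 and Tagln2 lie nearer to 0 in all 5 panels.

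Counts past an adjusted p of 0.05 over all genes (edgeR quasi-likelihood test, Benjamini-Hochberg) are given for the 8 genes other than S100a6 and Tagln2, as a description. None of the 8 passed with siRNA (2.62% of all genes), scrambled REVERSIR (0.421%), TTR REVERSIR (0.699%), siRNA and scrambled REVERSIR (0.61%) or siRNA and TTR REVERSIR (0.789%). At an unadjusted p under 0.05, 4, 3, 0, 1 and 0 of the 8 passed in this order, against 20.1%, 14.7%, 16.4%, 17.7% and 17.7% of all genes. DESeq2 called 0, 1, 0, 0 and 0 of them, the 1 being Vim. S100a6 and Tagln2 passed with siRNA and with scrambled REVERSIR, which restates their choice. Tagln2 alone passed when any 1 siRNA library, or scrambled REVERSIR replicate 1, was left out, and neither passed without scrambled REVERSIR replicate 2 or 3. Both also passed with TTR REVERSIR when its replicate 2 was left out. With PBS replicate 1 or PBS replicate 2 left out, none of the 10 passed for any treatment. The same held with the mitochondrial ribosomal RNA share as a covariate. Hardly any gene of any kind was called in these fits. The most for a treatment were 1 of 11236, 5 of 11231 and 1 of 11153 genes. With PBS replicate 3 left out, 6, 4, 3, 4 and 4 of the 10 passed in the order of treatments above. In the same order 1365, 749, 978, 1142 and 1151 of 11419 genes were called in all. S100a6 and Tagln2 were among the members that passed each time, which again follows from their choice. The median log2 fold change of the 10 genes, the chosen pair included, was 0.20 with siRNA and 0.17 with scrambled REVERSIR, and that of the 8 was 0.19 and 0.10, beside 0.0029 and −0.0034 over all genes tested. Without PBS replicates 1 and 2 the median of the 10 was 0.02 and 0.05, and from −0.01 to −0.04 for the other 3 treatments. Scaling by library totals alone moved the median of all genes to between 0.29 and 0.33 above PBS, so changes against PBS are relative to that median, and under that scaling all 10 genes were above PBS with every treatment.

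The ranges of the libraries are given for the same 8 genes. With siRNA, all 3 libraries lay above all 3 of PBS for 1 gene, S100a11 (9.51% of all genes), and with scrambled REVERSIR for 2, Vim and Lgals1 (7.3%). With TTR REVERSIR 1 gene, Lgals1, lay above (5.66%) and 1, S100a10, below (6.38%). S100a10 also lay below PBS with siRNA and scrambled REVERSIR (9.67%), and with siRNA and TTR REVERSIR all 8 overlapped PBS. PBS replicates 1 and 2 lay below all other 16 libraries in 3 of the 8, Anxa2, Krt8 and Krt18, as did 6.3% of all genes, and also in S100a6 and Tagln2. PBS replicate 3 lay within the range of the 15 treated libraries in 9 of the 10 genes and in 88.5% of all genes. The exception was Krt18, where PBS replicate 3, at 3209 CPM, was the highest of all libraries.

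The simple-epithelial keratins shared the low values of PBS replicates 1 and 2. Krt8 held 2722, 2897 and 3413 CPM in PBS and 3004 to 3531 in the treated libraries. Krt18, its partner, held 2490, 2521 and 3209 in PBS and 2816 to 3167 in the treated libraries. Against all 3 PBS libraries, Krt8 was 0.19 ± 0.080 higher with siRNA on the log2 scale and Krt18 0.18 ± 0.081, and against PBS replicate 3 alone they were at 0.02 ± 0.090 and −0.04 ± 0.082. Across the 18 libraries the pair had a correlation of 0.873, with 0.623 over the 15 libraries without PBS. The gene most like each keratin was the same, Ndufs5, a subunit gene of respiratory complex I, with 0.913 for Krt8 and 0.940 for Krt18.

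Anxa2 and its partner S100a10 differed from each other in this respect. Anxa2 was low in PBS replicates 1 and 2, at 802 CPM in each, against 930 in PBS replicate 3 and 849 to 1001 in the treated libraries. S100a10 held 391, 389 and 375 CPM in PBS and 345 to 409 in the treated libraries, so that the PBS libraries lay within the treated range. The correlation of the partners was −0.0319 over the 18 libraries and 0.428 without PBS. P4hb, which encodes protein disulfide isomerase, was most like Anxa2 (0.907), and the proteasome subunit gene Psma2 most like S100a10 (0.822).

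S100a11 and Anxa5 did not set both PBS replicates 1 and 2 apart either. S100a11 held 39.1, 38.8 and 37.1 CPM in PBS and 30.0 to 48.2 in the treated libraries, and Anxa5, a phosphatidylserine-binding annexin, 1136, 1060 and 1153 in PBS and 1079 to 1186. For both genes the PBS libraries overlapped the treated ones, apart from PBS replicate 2 in Anxa5, which was the lowest library. Their levels ran in opposite directions, with a correlation of −0.534 over 18 libraries and −0.606 without PBS. S100a11 was most like Ap1g2 (0.796), an adaptor subunit of vesicle coats, and Anxa5 most like the G protein gene Gnai3 (0.879).

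**Figure D3:**
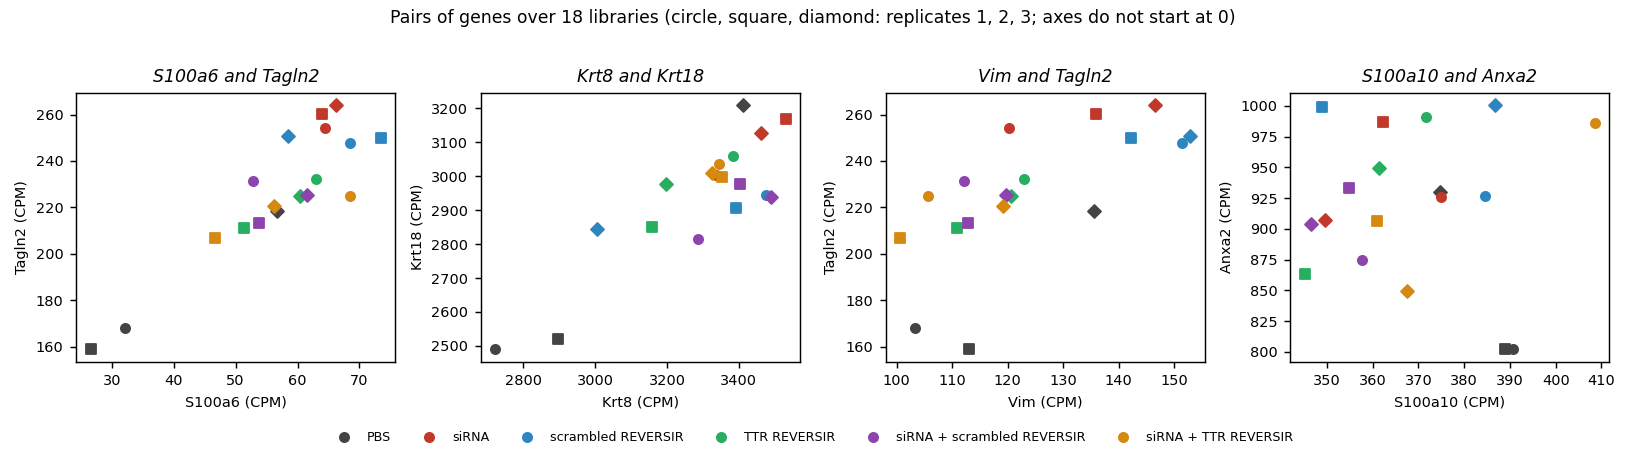
CPM of 4 pairs of genes in the 18 libraries, 1 point per library, coloured by group, with axes that do not start at 0. S100a6 with Tagln2 and Krt8 with Krt18 run along a diagonal whose low end is PBS replicates 1 and 2, whereas S100a10 and Anxa2 show no such line.

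Comparisons that leave PBS out did not serve to choose the genes, and 6 of them were tested. They ask what the siRNA, the sequence of the REVERSIR and their combination change beside Ttr. Vim, the vimentin gene, had the smallest p-value of the 8 members other than S100a6 and Tagln2 in 3 of the 6. Its libraries held 120.2, 136 and 147 CPM with siRNA and 151, 142 and 153 with scrambled REVERSIR. They held 123, 111 and 121 with TTR REVERSIR, 112, 113 and 119.8 with siRNA and scrambled REVERSIR, and 106, 101 and 119 with siRNA and TTR REVERSIR. The siRNA and scrambled REVERSIR groups were thus highest on average, with no overlap with the groups they were tested against, though siRNA replicate 1 lay just above siRNA with scrambled REVERSIR replicate 3. PBS, at 103, 113 and 136 CPM, spanned both levels.

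On the log2 scale Vim differed by −0.37 ± 0.090 (95% interval −0.56 to −0.19) between siRNA with scrambled REVERSIR and scrambled REVERSIR alone, with an adjusted p of 0.378. The adjusted p was 0.0289 when only the compared groups were fitted and 0.0133 with no filter on low counts, and ran from 0.0133 to 0.9999 over all alternatives. For TTR REVERSIR against scrambled REVERSIR the difference was −0.32 ± 0.094 (adjusted p = 0.438). Against siRNA alone it was −0.31 ± 0.084 for siRNA with TTR REVERSIR (adjusted p = 0.643) and −0.23 ± 0.083 for siRNA with scrambled REVERSIR (adjusted p = 0.9998). The 2 contrasts in which both sides held a lower group gave −0.08 ± 0.083 (siRNA with TTR REVERSIR against siRNA with scrambled REVERSIR) and −0.13 ± 0.087 (siRNA with TTR REVERSIR against TTR REVERSIR). None passed the threshold in the fit of all libraries. These contrasts share groups and so are not separate evidence.

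Lgals1, the galectin-1 gene, had a like order of groups at a far lower level. Its values were 6.69, 9.68 and 11.1 CPM with siRNA and 7.19, 10.9 and 14.1 with scrambled REVERSIR, each group spread widely. The other treated libraries lay between 4.07 and 8.64 CPM and PBS at 6.74, 4.28 and 6.81. The log2 differences were −0.71 ± 0.22 for siRNA with TTR REVERSIR against siRNA (adjusted p = 0.643) and −0.59 ± 0.21 for siRNA with scrambled REVERSIR against siRNA (adjusted p = 0.9998). For siRNA with scrambled REVERSIR against scrambled REVERSIR it was −0.73 ± 0.26 (adjusted p = 0.724). The 95% intervals of these 3 differences, −1.16 to −0.26, −1.03 to −0.15 and −1.27 to −0.19, did not reach 0, but none passed after adjustment over all genes. The intervals of the remaining comparisons included 0. They were −1.035 to 0.107 for TTR REVERSIR against scrambled REVERSIR and −0.90 to 0.12 for siRNA with TTR REVERSIR against TTR REVERSIR. Between the combinations, the TTR against the scrambled REVERSIR gave −0.58 to 0.34. Vim and Lgals1 had a correlation of 0.697 over 18 libraries, 0.747 without PBS and 0.264 for deviations from the group means. For Vim and Tagln2 the values were 0.663, 0.821 and 0.707 in this order. Abhd2, a lipase gene, was most like Vim (0.906, and 0.915 without PBS), and Tfrc, the transferrin receptor gene, most like Lgals1 (0.860).

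Levels of the markers of mesenchymal cells are given beside Vim and Lgals1. Of 17 markers of stellate cells and fibroblasts, 16 had counts and 9 passed the filter. Their summed CPM was 150.7 to 168 with siRNA, 165.7 to 195.1 with scrambled REVERSIR, 184.1 to 188.7 with TTR REVERSIR, 166.2 to 182.7 with siRNA and scrambled REVERSIR and 164.3 to 170.6 with siRNA and TTR REVERSIR. More than any other gene, Reln carried these sums, and without it the medians lay between 68.09 and 77.73 CPM in the 5 treated groups. None of the 9 passed the test in any of the 6 comparisons. Markers of macrophages summed to 286 to 366.6 CPM, nearly all of it Cd68, and those of endothelium to 53.37 to 77.73 CPM over the treated libraries. Without Cd68 the macrophage sum was 21.48 to 26.19 CPM with siRNA, above the 15.8 to 20.94 CPM of all other treated libraries. Of the 6 macrophage markers tested, the median log2 difference from siRNA was −0.36 with siRNA and TTR REVERSIR and −0.35 with siRNA and scrambled REVERSIR, and the same 2, C1qb and Clec4f, had an unadjusted p under 0.05 in both. Vim and Lgals1 were lower in these 2 comparisons as well, and the part of macrophage RNA in that was not tested. With scrambled REVERSIR, where Vim was high too, the sum without Cd68 was 17.03 to 17.77 CPM. No marker of macrophages or endothelium was called in any of the 11 comparisons, and no marker of mesothelium or lymphocytes passed the filter. Of the 7 cholangiocyte markers tested, Prom1 was called lower against PBS with siRNA (−0.37 ± 0.071) and with scrambled REVERSIR (−0.34 ± 0.078), and stood at −0.26 ± 0.10 and −0.24 ± 0.11 without PBS replicates 1 and 2.

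For S100a6 and Tagln2, p-values are given only for the 2 comparisons that use neither siRNA alone, scrambled REVERSIR alone nor PBS. For siRNA with TTR REVERSIR against siRNA with scrambled REVERSIR, S100a6 differed by 0.05 ± 0.15 (95% interval −0.26 to 0.36) and Tagln2 by −0.04 ± 0.080 (−0.20 to 0.13), both with an adjusted p of 0.9999. For siRNA with TTR REVERSIR against TTR REVERSIR the values were −0.04 ± 0.16 (−0.37 to 0.29) and −0.04 ± 0.082 (−0.21 to 0.13), with an adjusted p of 0.9998. As a description, Tagln2 was lower by −0.25 ± 0.080 with siRNA and TTR REVERSIR than with siRNA alone and by −0.22 ± 0.080 with siRNA and scrambled REVERSIR. S100a6 stood at −0.17 ± 0.15 and −0.22 ± 0.15 in these comparisons.

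The keratins, annexins and the other S100 members differed little between the treated groups. Krt8 and Krt18 stayed within −0.09 and 0.05 on the log2 scale in all 6 comparisons, with standard errors near 0.08. Anxa2 and Anxa5 stayed within −0.11 and 0.05 and S100a10 within −0.08 and 0.10, with 95% intervals between −0.27 and 0.23. S100a11 ranged more, from −0.22 ± 0.11 for siRNA with TTR REVERSIR against siRNA to 0.16 ± 0.13 for siRNA with scrambled REVERSIR against scrambled REVERSIR. Its libraries with siRNA and scrambled REVERSIR spread from 30.0 to 48.2 CPM.

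**Figure D4:**
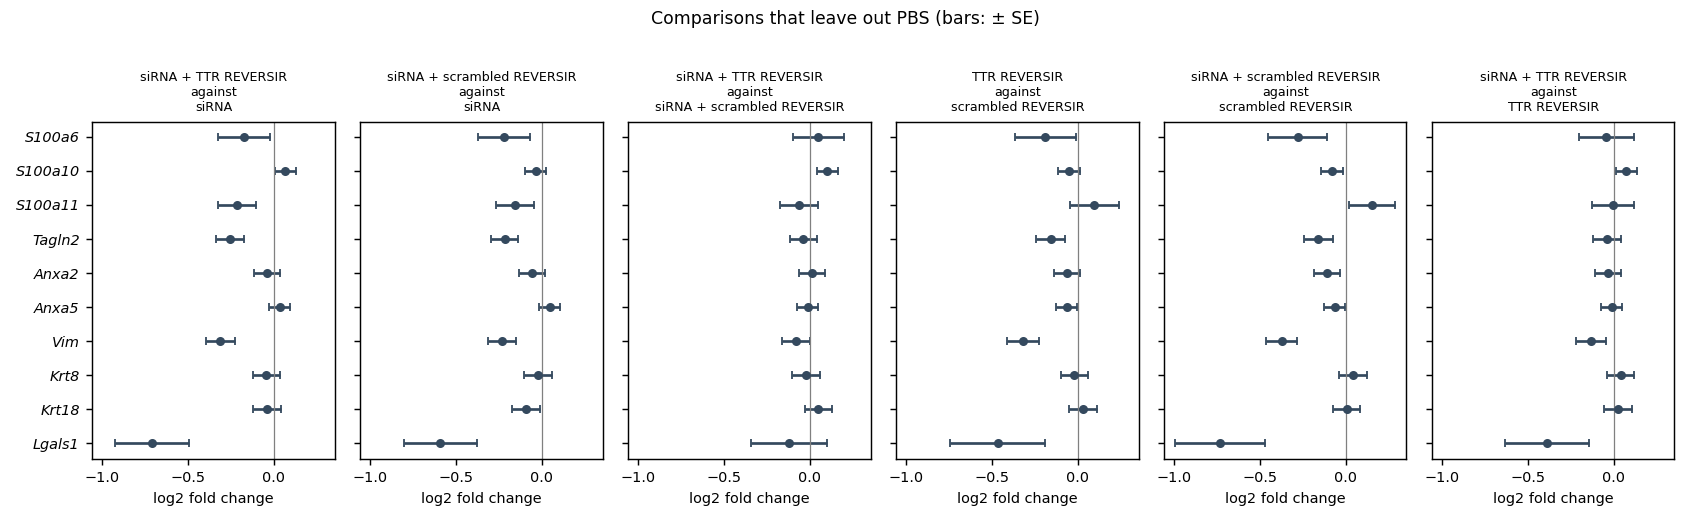
Log2 fold change of each gene in the 6 comparisons that leave PBS out, with bars of ± 1 SE. Vim and Lgals1 lie to the left of 0 in all 6 panels, and farther where siRNA or scrambled REVERSIR alone is the reference. The points of the keratins and Anxa5 lie near 0.

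By the edgeR test none of the 8 members other than S100a6 and Tagln2 was called in any of the 6 comparisons, nor was that pair in the 2 where it was tested. The shares of all genes called were 0.00897% for siRNA with TTR REVERSIR against siRNA, 0% for siRNA with scrambled REVERSIR against siRNA and 0.00897% for siRNA with TTR REVERSIR against siRNA with scrambled REVERSIR. They were 0.0179% for TTR REVERSIR against scrambled REVERSIR, 0.0179% for siRNA with scrambled REVERSIR against scrambled REVERSIR and 0% for siRNA with TTR REVERSIR against TTR REVERSIR. Very few genes of any kind were called in these comparisons. At an unadjusted p under 0.05, 2, 2, 0, 1, 2 and 0 of the 8 passed in this order, against 5.98%, 3.72%, 2.17%, 7.33%, 6.22% and 4.44% of all genes. Vim was among them in 4 comparisons and Lgals1 in 3. DESeq2 called none of the 8 and had the same counts at an unadjusted p.

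A test for any difference among the 5 treated groups called 0.0269% of all genes and none of the 8. Vim had an unadjusted p of 0.00022 and an adjusted p of 0.408, and Lgals1 an adjusted p of 0.764. These were the only members of the 8 with an unadjusted p under 0.05, which 5.16% of all genes had. DESeq2 called 1 of the 8 in this test, Vim, with an adjusted p of 0.0105. Over all alternatives, DESeq2 included, the adjusted p of Vim ran from 7.52e-05, with no filter on low counts, to 1, with library totals as the only scaling.

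By the ranges of the libraries, 3 of the 8 genes lay wholly lower with siRNA and scrambled REVERSIR than with siRNA alone, Vim, Krt18 and Lgals1, against 6.21% of all genes. With siRNA and TTR REVERSIR, 2 did so, S100a11 and Vim (6.6% of all genes), and 1, Anxa5, lay wholly higher (6.71%). Compared with scrambled REVERSIR, 2 lay wholly lower with siRNA and scrambled REVERSIR, Vim and Lgals1 (7.67%), and 2 with TTR REVERSIR, Anxa5 and Vim (5.76%). Between the combinations, S100a10 and Krt18 lay wholly higher with the TTR than with the scrambled REVERSIR (4.73%). Vim was in all 4 counts of lower genes, and these 4 comparisons share their reference groups in pairs. The median log2 difference of the 8 genes was −0.07, −0.04, −0.07 and −0.06 in the order of the 4, against medians between −0.0039 and −0.0019 over all genes tested. S100a6 and Tagln2 are left out of these counts and medians, because they were chosen for high values in the reference groups.

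The wider families of these genes were described from lists that were set with earlier results of these data known. Of 13 genes listed beside the S100 members, 4 passed the filter, namely S100a1, S100a13, S100a16 and S100pbp, which encodes a binding protein of S100P and is itself no S100 gene. S100a1 was highest at 34.54 to 52.29 CPM, and S100a4, a marker of fibroblasts and migrating cells, did not exceed 1.687 CPM. Of 10 further annexins, 7 passed, with Anxa3 at 257.5 to 328.9 CPM and Anxa7 at 260.6 to 317.5 CPM, and Anxa1, the partner of S100A11, only at 0.6835 to 2.431 CPM. Of 9 symbols listed beside Lgals1, 8 matched and 4 passed, namely Lgals3, Lgals8, Lgals9 and Lgals3bp, which encodes a protein that binds galectin-3 and is itself no galectin. Lgals9 stood at 406.4 to 581.3 CPM. No gene of these 3 lists was called in any of the 11 comparisons. Against PBS with siRNA, the median log2 fold change of the S100 list was −0.02, that of the annexins −0.01 and that of the galectin list 0.14, and without PBS replicates 1 and 2 these were 0.14, 0.04 and 0.11.

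Of 8 binding partners of S100 proteins and annexins, among them Ahnak, which binds the S100A10 and annexin A2 complex, all passed the filter and none was called in any comparison. Of 16 other intermediate filament and linker genes, 10 passed and none was called. They include Dsp, desmoplakin of cell junctions, at 617.7 to 883.9 CPM, and Lmna, of the nuclear lamina, at 117.5 to 217.3 CPM. No gene on any of the lists passed the test in the 6 comparisons without PBS.

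The actin and tubulin lists held a few genes called against PBS. Among 46 actin cytoskeleton genes tested, Tmsb10, an actin monomer-binding thymosin, was called higher with siRNA (0.44 ± 0.11) and Cfl2, a cofilin that severs filaments, lower (−0.29 ± 0.064). Actg1, the cytoplasmic gamma actin, was called lower with scrambled REVERSIR (−0.52 ± 0.12). Without PBS replicates 1 and 2, Tmsb10 stood at 0.08 ± 0.11, Cfl2 at −0.23 ± 0.086 and Actg1 at −0.09 ± 0.12. Actb, beta actin, lay between 5529 and 6292 CPM in all 18 libraries. Of 11 tubulin genes tested, Tuba1c was called higher with siRNA (0.53 ± 0.12) and TTR REVERSIR (0.53 ± 0.12), and stood at 0.19 ± 0.14 and 0.20 ± 0.14 without these PBS libraries. Among 20 target genes of SRF and YAP, regulators of transcription that respond to actin tension, none was called higher against PBS, and Actg1 alone was called lower. Their median log2 fold change was −0.04 with siRNA and 0.01 with scrambled REVERSIR, and 0.0042 and 0.02 without PBS replicates 1 and 2.

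Hepatocyte identity genes were described beside the 10, as their loss accompanies the rise of cytoskeletal genes in culture. Of 31 tested, none was called higher against PBS. With siRNA, 3 were called lower, among them Cyp3a11 (−0.38 ± 0.077) and Cyp2c29 (−0.30 ± 0.068), drug-metabolising enzymes. The serpin gene Serpina1c was called lower with all 5 treatments, with −0.61 ± 0.13 for siRNA, and the organic anion transporter gene Slco1b2 with scrambled REVERSIR (−0.56 ± 0.11) and TTR REVERSIR (−0.53 ± 0.10). With scrambled REVERSIR 4 were called lower and with TTR REVERSIR 3. The median log2 fold change of the 31 was −0.02 with siRNA and −0.12 with scrambled REVERSIR, and −0.02 and −0.09 without PBS replicates 1 and 2. In that fit Serpina1c with siRNA stood at 0.02 ± 0.097, the sign turned, Cyp3a11 at −0.14 ± 0.078 and Cyp2c29 at −0.25 ± 0.095, whereas Slco1b2 was at −0.59 ± 0.15 with scrambled REVERSIR and −0.56 ± 0.14 with TTR REVERSIR. Without PBS replicates 1 and 2 a lone PBS library is left, so only sizes of change are given for that fit.

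Across libraries the mean standardized log2 CPM of the 10 genes was lowest in PBS replicates 2 and 1, at −1.43 and −1.11, and ran from −0.58 to 0.69 in the other 16. The genes most like this mean among 8471 candidates were Plscr1, a phospholipid scramblase (0.923), Agpat2, an enzyme of triglyceride synthesis (0.909), Apoc1, an apolipoprotein (0.903), P4hb (0.894) and Syngr2, a vesicle protein (0.893). Over the 15 libraries without PBS these correlations were 0.861, 0.791, 0.731, 0.795 and 0.746. All values come from the same libraries and share their scaling. The mean also includes S100a6 and Tagln2, which were chosen for values above PBS. Its low place in PBS and these correlations may therefore follow in part from that choice.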

How the data were processed

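Total RNA of 18 libraries was analysed. The authors deposited raw read counts per Ensembl gene for each library, and the submitters' processing notes name STAR, the build NCBIM37 and DESeq2. How reads were counted, on which strand, and with which versions is not stated there. In the authors' deposited tables, each treatment against PBS has a mean signal over libraries, a log2 fold change, its standard error, the score of a Wald test and a p-value. Only log2 fold changes were printed from them.

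Symbols and positions came from the annotation of NCBIM37, for 37205 of 37991 identifiers. The members, lists and tests were chosen with earlier results of these data known. Genes were kept by filterByExpr (11153 left, all 10 members among them), scaled by TMM and fitted in 1 edgeR 4.0.16 quasi-likelihood model (R 4.3.3, limma 3.58.1) of 6 groups with 12 residual degrees of freedom. The threshold was 0.05 after Benjamini-Hochberg adjustment over all genes kept. For the 10 members the 5 contrasts with PBS are descriptions, with counts past the threshold but no p-values printed. Listed genes were tested against PBS. For S100a6 and Tagln2, p-values are given only where neither PBS, siRNA alone nor scrambled REVERSIR alone enters. CPM use effective library totals, with a prior count of 2 for logarithms, and FPKM the union of exons. Named list genes were at most 3 called genes per list and comparison, with others given for their level only. The result of 1 listed gene is not reported here. The genes most like a member, or like their mean, were taken by Pearson correlation over 18 libraries. Scripts were tested on simulated counts. Alternatives were DESeq2 1.42.0, 2 other scalings, 2 filters, the compared groups alone, PBS left out, a replicate block, a covariate and each library left out. The lowest chi-square per degree of freedom between replicates was 2.13, so no library was a copy of another in its group. Libraries of different groups were not compared in this way.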

Additional observations from a re-analysis of the deposited data

How the results depend on the processing

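Of 113 counts of called members over 7 tests without PBS, 108 were 0 as in the main fit and 5 were higher. For siRNA with scrambled REVERSIR against scrambled REVERSIR, 1 member (Vim) was called with no filter on low counts, where 41 genes were called in all, and 1 (Vim) with the compared groups alone, where 5 genes were called. In the test for any difference among the 5 treated groups, 1 member (Vim) was called by DESeq2, 1 (Vim) with the mitochondrial ribosomal RNA share added as covariate, and 2 (Vim and Lgals1) with no filter on low counts, where 116 genes were called. The cause was not tested. Leaving out any 1 library of the compared groups left 0 members called in all 7 tests. In the 6 comparisons of 2 groups, Vim in the first 2 of these settings was the only member to cross the threshold. Against PBS, 0 members were called with the compared groups alone, where 1, 7, 0, 7 and 1 genes were called in all. The order is siRNA, scrambled REVERSIR, TTR REVERSIR and the 2 combinations. DESeq2 called 386, 169, 155, 162 and 180 genes in this order, and library totals alone called 3844, 1580, 2883, 3557 and 4089.

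The replicate numbers of the titles were also fitted as a block. With the replicate block, 0 members were called in all 6 comparisons without PBS and in the test among the treated groups, and Vim passed the threshold with scrambled REVERSIR against PBS. In none of the comparisons did every same-numbered pair correlate above 0.1, but these correlations cannot decide whether the numbers pair the libraries. For siRNA with TTR REVERSIR against TTR REVERSIR the same-numbered pairs gave 0.287, 0.156 and −0.0707. In the edgeR test among the treated groups, the adjusted p of Vim was 0.0724 with the block and 0.408 without. For siRNA with scrambled REVERSIR against siRNA every library correlated best with its own number, at 0.0858, 0.146 and 0.0789. The count file of siRNA with scrambled REVERSIR replicate 2 is named with number 1, unlike its title, which was used here, so the numbers of that group are in doubt. Lgals1 had 19 to 95 counts per library.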
